A study of Homo sapiens with 5 samples.

Results

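Interferon-stimulated genes are the set of genes that cells switch on when interferon, a secreted alarm signal against viruses, binds its receptor. A list of 39 such genes was looked up by symbol in a table of 18257 genes, and all 39 were present. Poly(A) RNA was sequenced from HEK293 cells, which derive from human embryonic kidney, in a T-Rex FLP-IN strain that carries a FLAG:DICER1 insert in every group, the mock included. The control was 1 mock transfection, DICER1 was targeted in 2 libraries by siRNA 1 and siRNA 2, and DROSHA in another 2 by its own siRNA 1 and siRNA 2, all labelled 18 h. The labels do not say whether the insert was induced or whether the mock received an siRNA. They name no separate cultures either, and the p-values reflect the spread within the 2 siRNA pairs alone. That spread joins differences between libraries, which may be technical, with differences between siRNA 1 and siRNA 2 of a target. The design text gives the purpose as the regulatory effect of Dicer binding, DROSHA knockdown and mock serving as controls.

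Type I interferons bind the receptor pair IFNAR1 and IFNAR2, whose kinases JAK1 and TYK2 phosphorylate STAT proteins. STAT2 and IRF9 are parts of ISGF3, a transcription factor that binds the interferon-stimulated response element in the promoters of its target genes. Double-stranded RNA, which DICER1 cuts and which synthetic siRNAs resemble, can set off interferon production in cells that hold the matching sensors. Some interferon-stimulated genes also have a basal level that needs no interferon, while others are almost silent until the signal arrives.

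The response element holds the letters GAAA, any 2 letters, then GAAA again, a feature that does not depend on the read counts. RefSeq promoter windows, running from 250 bases before to 50 bases after a start site on GRCh38.p14, were found for 33 of the 39 genes. The letters stood on either strand in at least 1 window of 23 of these 33 genes (69.7%), against 566 of 13510 genes of the table that have a window (4.19%) and 3.57% of all 35116 windows. They were found in 17 of 22 genes expressed in this line (77.3%), in 4 of 8 genes with few reads and in 2 of the 3 genes listed at 0. A match is a description of letters and not a measured binding site, and genes with several windows had more chances to match. The sequences below first show genes that were expressed and were not called as changed in any comparison. Untreated cells were not sequenced, so a rise that the mock shares could not be seen. RSAD2, IFI44 and IFI44L come last. They had almost no reads and were added after their values were seen. Each is printed 5′ to 3′ on the strand of the gene. Capitals mark 1 match, in the direct form or as its reverse complement, TTTC, any 2 letters, TTTC. The lines of ISG15 and BST2 hold another match, partly in small letters, that overlaps the marked one.
ISG15, chr1:1013380-1013409, plus strand: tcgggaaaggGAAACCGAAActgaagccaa
IFIT5, chr10:89414554-89414583, plus strand: atttcttaagTTTCAGTTTCtgagcgctcg
IFIT1, chr10:89392510-89392539, plus strand: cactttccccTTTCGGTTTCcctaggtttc
IFITM1, chr11:314024-314053, plus strand: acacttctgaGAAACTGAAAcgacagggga
BST2, chr19:17405735-17405764, minus strand: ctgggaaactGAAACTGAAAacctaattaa
DTX3L, chr3:122564322-122564351, plus strand: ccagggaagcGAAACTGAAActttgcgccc
PARP9, chr3:122564322-122564351, minus strand: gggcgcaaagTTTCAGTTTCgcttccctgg
RSAD2, chr2:6877622-6877651, plus strand: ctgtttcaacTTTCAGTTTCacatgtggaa
IFI44, chr1:78649761-78649790, plus strand: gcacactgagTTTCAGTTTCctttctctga
IFI44L, chr1:78620365-78620394, plus strand: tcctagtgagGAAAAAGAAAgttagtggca
DTX3L and PARP9, whose proteins form a ubiquitin ligase complex, are divergent neighbours, and the 2 lines are the same 30 bases read from opposite strands. RSAD2 and IFI44 hold TTTCAGTTTC, the same 10 letters as IFIT5 and PARP9. The lines of IFITM1, BST2 and DTX3L hold its reverse complement, GAAACTGAAA.

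Of the 39 genes, 24 were expressed without any added interferon, which here means at least 1 CPM (counts per 1000000 of the library total) in at least 2 of the 5 libraries. This is 61.5% of the list, against 67.0% of all genes in the table. Another 12 genes (30.8%, against 18.7% of all genes) had reads but stayed under that limit, and 3 genes had no read in any library. Together the 39 genes held 481 CPM in the mock, 495 and 465 CPM in the DICER1 siRNA libraries, and 479 and 460 CPM in the DROSHA siRNA libraries. TRIM25, HERC5 and IFIT5 held 49.3% of these reads. Total counts ran from 7620206 to 8736455 per library.

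**Figure D1:**
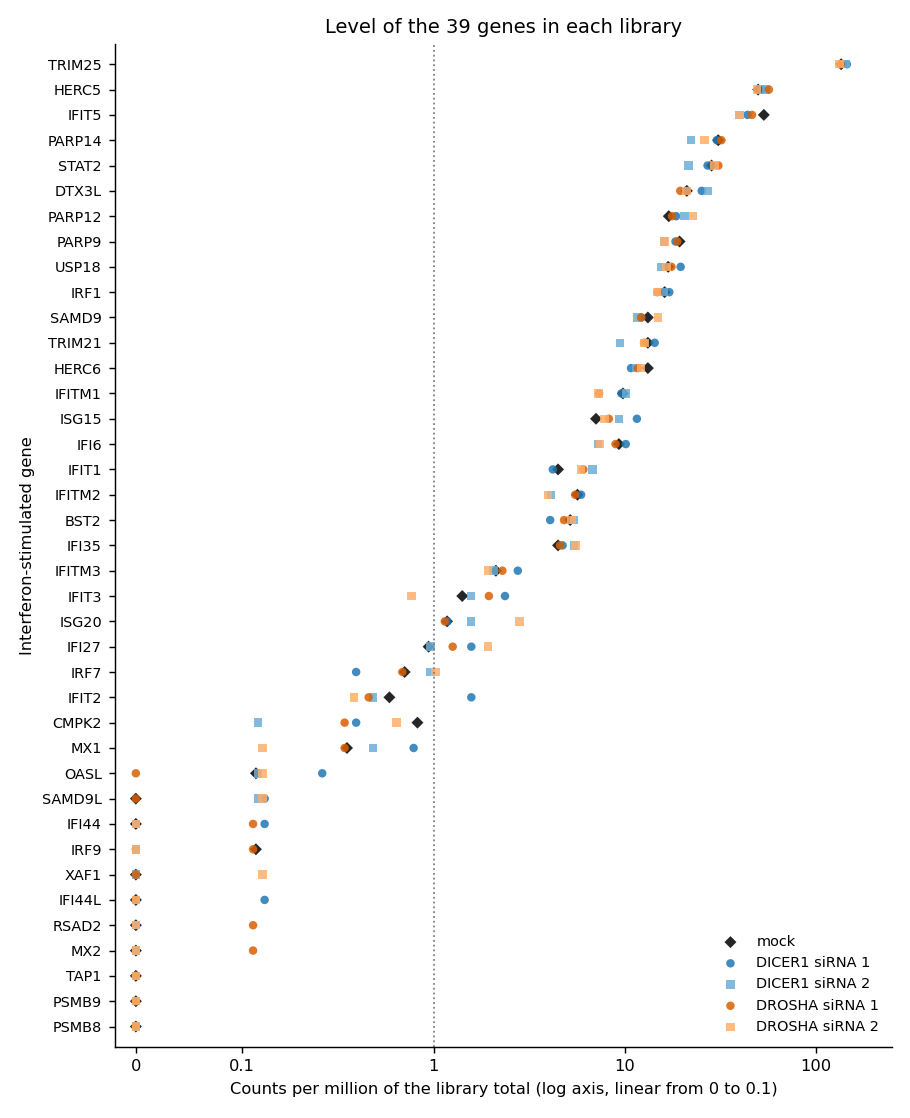
Level of each of the 39 genes in each of the 5 libraries, in CPM on a log axis that is linear from 0 to 0.1; each point is 1 library and the dotted line marks 1 CPM. TRIM25 is at 132 to 144 CPM, the points of most genes lie close together, and RSAD2 and MX2 each have a read in a single library.

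OASL, RSAD2, MX2, SAMD9L, IFI44, IFI44L, XAF1 and IRF9 each had at most 2 reads in any library, within the 3 counts that a reading of 0 allows (0.343 to 0.394 CPM, counting error only). These 8 genes held 16 reads in all 5 libraries together. RSAD2, which codes for the antiviral enzyme viperin, and MX2, a dynamin-like GTPase that blocks retroviruses, each had 1 read, in DROSHA siRNA 1. OASL, a relative of the oligoadenylate synthetases, had 1, 2, 1, 0 and 1 reads in the mock, DICER1 siRNA 1 and 2 and DROSHA siRNA 1 and 2. No fold change is given for these 8 genes.

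The other 4 genes of the low class had more reads. IFIT2, which binds viral RNA, had 5 reads in the mock, 12 and 4 in the DICER1 siRNA libraries, and 4 and 3 in the DROSHA siRNA libraries. MX1, the GTPase that blocks influenza virus, had 3 reads in the mock, 6 and 4 with DICER1 siRNA, and 3 and 1 with DROSHA siRNA. For IFIT2 and MX1 the highest library was DICER1 siRNA 1, while DICER1 siRNA 2 lay near the mock. CMPK2, a mitochondrial nucleotide kinase, had 7 reads in the mock, 3 and 1 with DICER1 siRNA, and 3 and 5 with DROSHA siRNA. IRF7, the factor that amplifies interferon production, had 6 reads in the mock, 3 and 8 with DICER1 siRNA, and 6 and 8 with DROSHA siRNA. Summed over the 12 low genes, the level was 2.71 CPM in the mock (exact Poisson 95% interval 1.72 to 4.06, counting error only). It was 3.81 CPM (2.55 to 5.47) and 2.29 CPM (1.38 to 3.58) in DICER1 siRNA 1 and 2. In DROSHA siRNA 1 and 2 it was 2.29 CPM (1.40 to 3.54) and 2.56 CPM (1.56 to 3.95). All 5 intervals overlap one another. A gene that reached 1 CPM in at least 2 libraries would have left this class, so the sum cannot show such a rise.

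**Figure D2:**
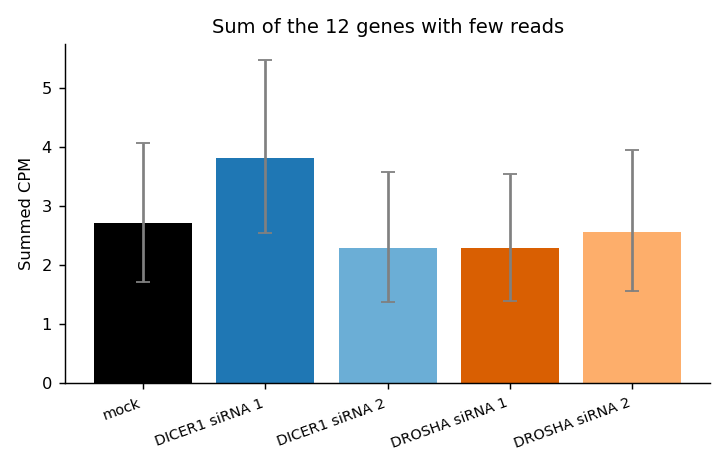
Summed level of the 12 genes with few reads, in CPM, in each library; bars are 1 library each and lines are exact Poisson 95% intervals, which cover counting error only. The bars lie between 2.29 and 3.81 CPM with overlapping intervals. Genes that reached 1 CPM in at least 2 libraries are not in this class.

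PSMB8 and PSMB9, catalytic subunits of the immunoproteasome, and TAP1, a subunit of the peptide pump of antigen presentation, are listed at 0 in all libraries, but the table does not show that they are silent. They lie in the major histocompatibility complex on chromosome 6, and genes that every cell uses are at 0 there too. RPS18, a protein of the small ribosomal subunit, is at 0 in all 5 libraries, as are CSNK2B, DDX39B, FLOT1 and ABCF1, and the tubulin gene TUBB has 2 to 8 reads. These 6 genes were chosen after their values were seen. Of 134 protein-coding genes of the table between HLA-F and DAXX, 93 (69.4%) had no read, against 84 of 730 (11.5%) on the rest of chromosome 6. IRF9, the DNA-contacting part of ISGF3, had 1 read in the mock and 1 in DROSHA siRNA 1 and is not in that stretch. In GENCODE 29, 48.4% of its exon bases are shared with the exons of another gene on the same strand, AL136295.5, and a read over shared bases may not be assigned to either gene. XAF1, a pro-apoptotic gene, shares 38.3% with an opposite-strand transcript. Of genes with 90% or more of their exon bases shared, 54.3% had no read, but among those with more than 0 and under 50% shared the figure was 7.0%, and with none shared 18.9%. The sources used here do not give the authors' annotation release, and the part of shared exons in the low counts of IRF9 and XAF1 was not tested.

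**Figure D3:**
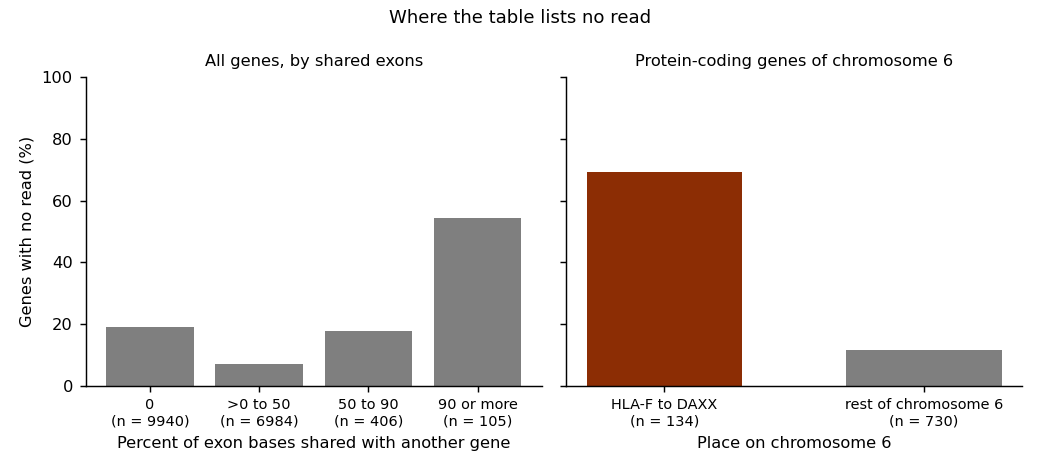
Percent of genes with no read in any library, by the percent of their exon bases that GENCODE 29 shares with another gene (left, all matched genes) and by place on chromosome 6 (right, protein-coding genes); n is the number of genes. The bars stand at 54.3% for genes with 90% or more shared and at 69.4% for the stretch from HLA-F to DAXX, which holds PSMB8, PSMB9 and TAP1.

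Among the 24 expressed genes, levels of different genes were compared per length, as CPM per kb of annotated exon. On that scale TRIM25 was highest, at a mean of 14.5 over the 5 libraries (range 13.9 to 15.2), followed by IFIT5 at 11.1 (9.86 to 13.2) and HERC5 at 11.0 (10.3 to 11.9). TRIM25 is a ubiquitin ligase that activates the RNA sensor RIG-I, HERC5 is the ligase that attaches ISG15 to other proteins, and IFIT5 binds RNA with a 5′ phosphate. The ranges of IFIT5, HERC5, IFI6 and ISG15 overlap, so their order is not resolved. Only 7 of the 24 genes lay above the median of all expressed genes with a known length, 7.39 CPM per kb, and the median of the 24 was 3.16. At the lower end stood IFIT3 at 0.610 (0.291 to 0.895), IFI27 at 0.321 and ISG20 at 0.214. Within the IFIT family the length-scaled level thus ran from 11.1 for IFIT5 to 1.19 for IFIT1 and 0.610 for IFIT3. The IFITM1, IFITM2 and IFITM3 genes are related in sequence. Apart from that, 32.5% of the annotated exon bases of IFITM1 are shared with IFITM2, and 21.3% of those of IFITM3 with an opposite-strand gene. Reads that could belong to more than 1 gene may be lost, so the values of IFITM1, IFITM2 and IFITM3, 8.17, 3.26 and 1.65, are uncertain.

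**Figure D4:**
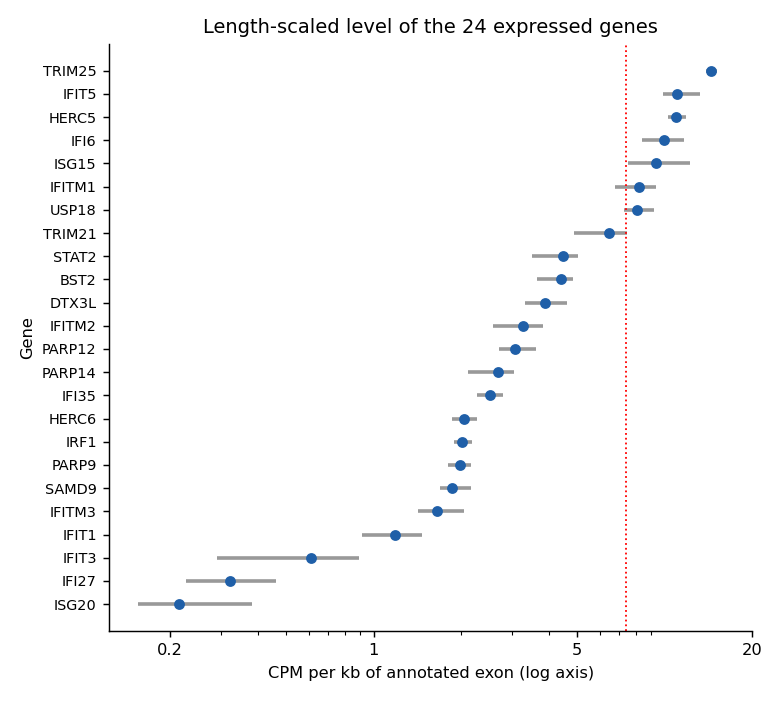
Length-scaled level of the 24 expressed genes, in CPM per kb of annotated exon on a log axis; points are means over 5 libraries, lines run from the lowest to the highest library, and the dotted line is the median of all expressed genes with a known length, 7.39. TRIM25, IFIT5, HERC5, IFI6, ISG15, IFITM1 and USP18 have means above the line.

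The knockdowns themselves showed in the targeted mRNAs. Counts per gene symbol do not tell reads of the FLAG:DICER1 insert from those of the cell's own DICER1 gene. DICER1 fell from 241 CPM in the mock to a mean of 71.1 CPM with its siRNAs (log2 fold change -1.78 ± 0.12 SE, adjusted p = 0.0260), and DROSHA fell from 190 CPM to 41.6 CPM with its own (-2.20 ± 0.09, adjusted p = 0.000882), by edgeR's quasi-likelihood test over 12234 genes. With either DICER1 siRNA library left out the DICER1 call was lost (adjusted p = 0.167 without siRNA 1 and 0.801 without siRNA 2), at log2 fold changes of -1.85 and -1.71. The 7 markers listed for the line, VIM among them, were all expressed. Of 8 immune cell markers 1 was expressed (CD14), 4 were low and 3 were at 0, PTPRC among them, and the list summed to at most 3.32 CPM in a library. Of 4 fibroblast and endothelial markers 1 was expressed (COL1A1) and the list summed to 6.02 to 8.27 CPM.

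In the DICER1 knockdown no interferon-stimulated gene passed the test, in either direction. Of all tested genes 0.00817% passed, which is DICER1 alone. The smallest adjusted p among the 24 tested members was 0.865 in edgeR's quasi-likelihood test. At an unadjusted p under 0.05 there was 1 member, against 5.46% of all genes. DESeq2 and edgeR's likelihood ratio test also called 0 members. The median log2 fold change of the 24 was 0.03, against 0.0005 over all tested genes. In 9 members both DICER1 siRNA libraries lay above the mock and in 6 both lay below it, and among all genes these shares are 41.0% and 32.0%. Only genes that passed the limit of 1 CPM enter these counts.

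IFIT5 had the smallest p. Its level was 53.2 CPM in the mock, 43.7 and 39.6 CPM in DICER1 siRNA 1 and 2, and 46.1 and 39.7 CPM in DROSHA siRNA 1 and 2. The mock was the highest library and no siRNA library reached it. The log2 fold change was -0.37 ± 0.14 (SE, unadjusted p = 0.0342, edgeR adjusted p = 0.865) in DICER1 against mock.

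ISG15, a ubiquitin-like protein that is among the most strongly induced genes of the response, had a positive difference. It stood at 7.06 CPM in the mock, 11.5 and 9.29 CPM with DICER1 siRNA, and 8.24 and 7.81 CPM with DROSHA siRNA. The mock was the lowest library, and the DICER1 siRNA libraries lay above both DROSHA siRNA libraries. With 1 mock library, a mock that is low for ISG15 cannot be told apart from a rise in both knockdowns. The log2 fold change in DICER1 against mock was 0.54 ± 0.23 (95% interval -0.003 to 1.08, edgeR adjusted p = 0.865), which does not pass.

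Of the other genes grouped with ISG15 conjugation, HERC5 and TRIM25 lay above the mock in both DICER1 siRNA libraries, HERC6 lay below it in both, and USP18 lay on both sides. USP18, the protease that removes ISG15 and also dampens the receptor, was at 16.8 CPM in the mock, 19.6 and 15.5 CPM with DICER1 siRNA, and 17.5 and 16.5 CPM with DROSHA siRNA. HERC5 was at 49.7 CPM in the mock, 51.8 and 54.7 CPM with DICER1 siRNA, and 56.5 and 48.9 CPM with DROSHA siRNA. USP18 lay on both sides of the mock within each siRNA pair, and so did HERC5 within the DROSHA pair. HERC6, a relative of HERC5, had 13.2 CPM in the mock, 10.8 and 11.5 CPM with DICER1 siRNA, and 11.7 and 12.2 CPM with DROSHA siRNA, all below the mock. Its log2 fold change in DICER1 against mock was -0.26 ± 0.17, with an edgeR adjusted p of 0.882. TRIM25, from 132 to 144 CPM, had the lowest ratio of highest to lowest library among the 24, at 1.09.

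DTX3L and PARP9, the divergent neighbours, lay on opposite sides of the mock with DICER1 siRNA and both below it with DROSHA siRNA. DTX3L stood at 21.1 CPM in the mock, 25.2 and 27.2 CPM with DICER1 siRNA, and 19.5 and 21.0 CPM with DROSHA siRNA, so that the DICER1 siRNA libraries were the 2 highest. PARP9 stood at 19.3 CPM in the mock, 18.4 and 16.1 CPM with DICER1 siRNA, and 18.8 and 16.1 CPM with DROSHA siRNA, all below the mock. In DICER1 against mock the log2 fold change was 0.29 ± 0.14 for DTX3L and -0.19 ± 0.18 for PARP9, with edgeR adjusted p of 0.870 and 0.924. The difference between these 2 genes was not tested. PARP14, a large mono-ADP-ribosyltransferase, ranged from 22.1 CPM in DICER1 siRNA 2 to 31.9 CPM in DROSHA siRNA 1, with 30.7 CPM in the mock. PARP12, of the same enzyme family, ranged from 16.9 CPM in the mock, its lowest library, to 22.7 CPM in DROSHA siRNA 2. SAMD9, a restriction factor for poxviruses, lay between 11.6 and 14.8 CPM, while its neighbour SAMD9L had at most 1 read in any library.

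Of the transcription factors, STAT2 stood at 28.4 CPM in the mock, 27.0 and 21.5 CPM with DICER1 siRNA, and 30.8 and 29.4 CPM with DROSHA siRNA. Both DICER1 siRNA libraries were below the mock and both DROSHA siRNA libraries above it. The log2 fold change in DICER1 against mock was -0.25 ± 0.17 (edgeR adjusted p = 0.889), and without DICER1 siRNA 2 it was -0.0853, so that library set its size. IRF1, which acts downstream of interferon gamma, stayed between 14.7 and 17.1 CPM.

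In the DROSHA knockdown no member passed either, and 0.00817% of all genes did, DROSHA alone. The smallest adjusted p of a member was 0.978 in edgeR's quasi-likelihood test, 0 members had an unadjusted p under 0.05 (3.69% of all genes did), and DESeq2 and the likelihood ratio test called 0. The median log2 fold change of the 24 was -0.04, against -0.005 over all genes. Both DROSHA siRNA libraries lay above the mock in 6 members and below it in 10, and the shares among all genes are 35.0% and 29.0%. IFIT5 had again the smallest p, with -0.32 ± 0.14 (edgeR adjusted p = 0.978), and without DROSHA siRNA 2 its value was -0.214. This comparison uses the same single mock as that of DICER1, so a mock that is high for IFIT5 cannot be told apart from a change in both knockdowns. The same limit holds for HERC6 and PARP9, highest in the mock, and for ISG15 and PARP12, lowest in it.

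Next came IFITM1, which blocks the entry of enveloped viruses at the cell membrane. It stood at 9.77 CPM in the mock, 9.58 and 10.1 CPM with DICER1 siRNA, and 7.33 and 7.30 CPM with DROSHA siRNA. The DROSHA siRNA libraries were the 2 lowest, apart from the other 3, with a log2 fold change of -0.43 ± 0.19 against the mock (edgeR adjusted p = 0.978). IFI27, a small mitochondrial protein gene, had 8 reads in the mock, 12 and 8 with DICER1 siRNA, and 11 and 15 with DROSHA siRNA. Its log2 fold change was 0.72 ± 0.56 (edgeR adjusted p = 0.978). At 0.942 CPM in the mock, IFI27 passed the limit of 1 CPM only through siRNA libraries. Its positive value, and its count among members above the mock, therefore cannot show a rise. For IFIT1, which blocks translation of RNA that lacks the methylated cap of the host, the level was 4.47 CPM in the mock, 4.20 and 6.76 CPM with DICER1 siRNA, and 6.07 and 5.89 CPM with DROSHA siRNA. Its log2 fold change in DROSHA against mock was 0.40 ± 0.33, and that of PARP12 was 0.23 ± 0.19, each with an edgeR adjusted p of 0.978.

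The remaining expressed genes had ranges that crossed between groups or differed little from the mock. IFITM2 ran from 3.97 to 5.90 CPM, IFITM3 from 1.92 to 2.76 CPM, and BST2, which tethers budding virus particles to the cell, from 4.07 to 5.43 CPM. IFI6, an inner mitochondrial and reticulum protein gene, ran from 7.24 to 10.1 CPM and IFI35 from 4.47 to 5.50 CPM. TRIM21, a cytosolic antibody receptor, ran from 9.42 to 14.3 CPM, its ends being the 2 DICER1 siRNA libraries. Near the limit of 1 CPM, IFIT3, a partner of IFIT1 and IFIT2, had 12 reads in the mock and 6 to 18 elsewhere, and ISG20, a 3′ exonuclease, had 10 reads in the mock and 22 in DROSHA siRNA 2, its highest library.

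The intervals show how large a change could have gone unseen. In DICER1 against mock the upper 95% bound lay under a 2-fold rise in 18 of the 24 tested members, and in DROSHA against mock in 20, against 91.4% and 93.0% of all tested genes. The exceptions with DICER1 siRNA were ISG15, IFIT1, IFIT3, IFITM3, IFI27 and ISG20, whose upper bounds ran from 1.06 (IFITM3) to 1.86 (IFIT3) on the log2 scale. With DROSHA siRNA they were IFIT1, IFIT3, IFI27 and ISG20, with the highest bound, 2.21, for ISG20. Apart from ISG15 these genes had under 60 reads in every library. In DICER1 against DROSHA siRNA the bound lay under a 2-fold rise in 23 members (92.7% of all genes), IFIT3 being the exception, and for all 4 siRNA libraries against the mock in 20 (93.9%). In the mean of these 4 libraries against the mock 0 of 24 members passed (0.00817% of all genes did, DROSHA alone, and DESeq2 and the likelihood ratio test called 0 members), and 1 had an unadjusted p under 0.05 (3.69% of all genes). That was IFIT5 at -0.35 ± 0.13, lower in 4 of 4 siRNA libraries, with an edgeR adjusted p of 0.972. All 4 siRNA libraries lay above the mock in 4 members and below it in 3, against 22.3% and 15.8% of all genes. ISG15 stood there at 0.35 ± 0.21, IFITM1 at -0.22 ± 0.17, HERC6 at -0.21 ± 0.15 and PARP12 at 0.21 ± 0.18.

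**Figure D5:**
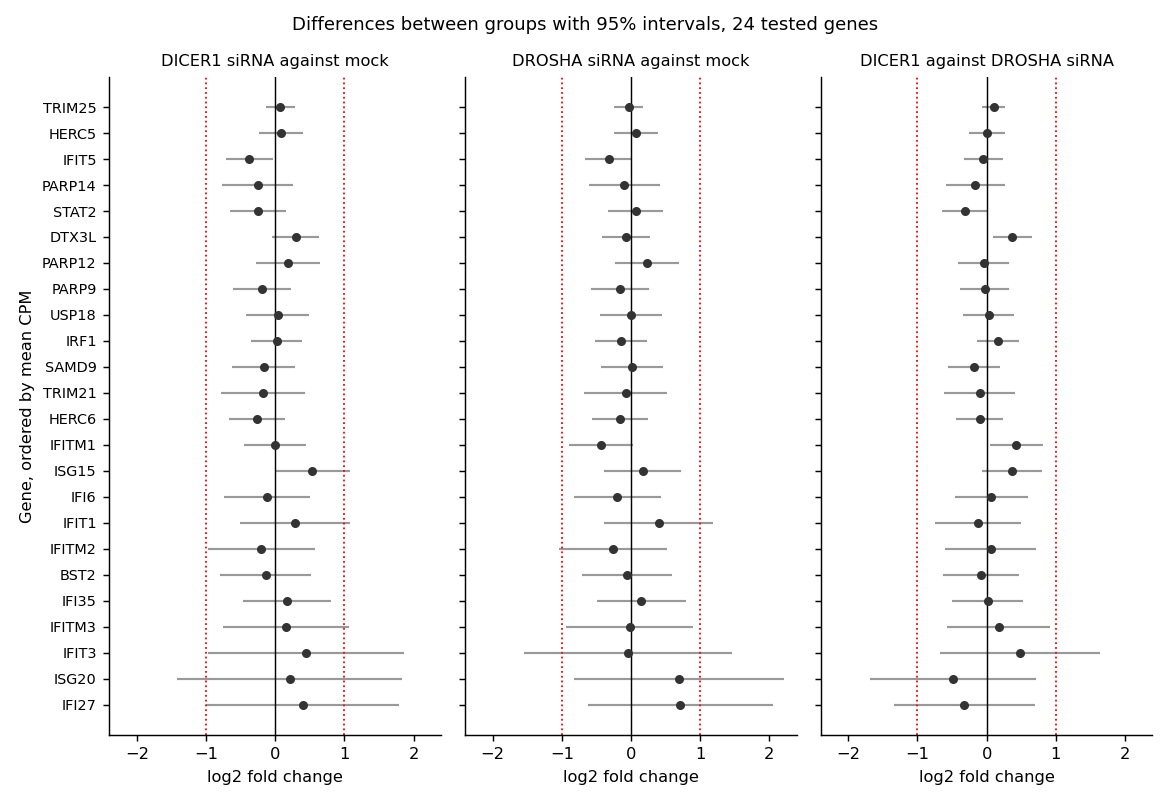
Log2 fold changes of the 24 tested genes with 95% intervals from edgeR's quasi-likelihood fit, in 3 comparisons, ordered by mean CPM; dotted lines mark 2-fold changes. Points lie between -0.49 and 0.72, and the widest intervals belong to the genes with the fewest reads at the bottom.

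Set directly against each other, the DICER1 and DROSHA siRNA libraries had no member past the test, and 0.0163% of all genes passed, DICER1 and DROSHA themselves. At an unadjusted p under 0.05 there were 2 members, against 8.34% of all genes, and DESeq2 and the likelihood ratio test called 0 members. DTX3L had a log2 difference of 0.37 ± 0.12 (unadjusted p = 0.0173, edgeR adjusted p = 0.523) and IFITM1 of 0.43 ± 0.16 (unadjusted p = 0.0329, edgeR adjusted p = 0.566). STAT2 stood at -0.32 ± 0.14, ISG15 at 0.37 ± 0.18 and TRIM25 at 0.10 ± 0.07, with edgeR adjusted p of 0.608, 0.621 and 0.738. The groups did not overlap in 5 members with DICER1 siRNA higher and in 2 with it lower, against 21.6% and 19.3% of all genes. Without DROSHA siRNA 1 the count of genes called rose from 2 to 427 in this comparison and from 1 to 225 in DROSHA against mock, and there too 0 of the members were called.

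Interferon genes had almost no reads, while genes of the receptor and signalling steps were expressed. Of 18 interferon genes found, 16 had no read in any library, among them IFNB1, IFNG and 12 genes of the alpha family. IFNE had 1, 0, 1, 0 and 2 reads in the mock, DICER1 siRNA 1 and 2 and DROSHA siRNA 1 and 2, and IFNA21 had 1 read, in DROSHA siRNA 2. All 5 receptor genes found and all 17 genes of signalling and induction were expressed. The lambda interferon genes IFNL1, IFNL2, IFNL3 and IFNL4 and the receptor gene IFNLR1 were not found under current or older symbols. IFNAR1 stood at 74.7 to 97.0 CPM and IFNAR2 at 29.8 to 37.5 CPM, JAK1 at 114 to 136 CPM and TYK2 at 99.6 to 109 CPM over the 5 libraries. In GENCODE 29, 83.2% of the exon bases of IFNAR2 are shared with other genes, so its level is uncertain. IFNAR2, JAK1 and TYK2 were picked for their place in the pathway after their values were seen.

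None of the genes in these lists passed edgeR's quasi-likelihood test in DICER1 or DROSHA against mock, over 5 receptors, 17 signalling genes, 11 negative regulators, 19 further interferon-stimulated genes, 13 genes of class I antigen presentation, 3 constitutive proteasome subunits and 5 double-stranded RNA sensors. Within their own lists the smallest p belonged to IFNGR1, a receptor chain for interferon gamma, at -0.39 ± 0.16 in DROSHA against mock, and STAT3 at -0.39 ± 0.17 in DICER1 against mock. In theirs, the phosphatase PTPN11 stood at -0.22 ± 0.07 and HLA-B, a class I antigen presenting molecule, at -0.39 ± 0.13 in DROSHA against mock, and PLSCR1, a phospholipid scramblase, at -0.39 ± 0.14 in DICER1 against mock. PSMB10, the immunoproteasome subunit outside the chromosome 6 stretch, had 0.525 CPM per kb, against 85.4 for PSMB5 and 109 for PSMB7 of the constitutive proteasome. PSMB10 was chosen after its values were seen, and 34.8% of its exon bases are shared with another gene.

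Of 7 double-stranded RNA sensors and regulators 5 were expressed. DDX58, which codes for RIG-I, was expressed at 5.55 to 9.22 CPM and had a log2 fold change of -0.30 ± 0.24 in DICER1 against mock. ADAR, the RNA editing enzyme that keeps such sensors quiet, was at 461 CPM in the mock and 282 CPM in DROSHA siRNA 2, while the other 3 libraries lay between 472 and 485 CPM. Its log2 fold change in DROSHA against mock was -0.30 ± 0.26 (edgeR adjusted p = 0.978), with -0.733 (adjusted p = 0.00255) without DROSHA siRNA 1 and 0.0247 (adjusted p = 0.968) without DROSHA siRNA 2, so the value rests on that library.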

How the data were processed

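The authors deposited raw read counts per gene symbol, 1 column per library and 0 columns unused. CASAVA 1.8.2, STAR, HTSeq, edgeR and build hg19 are named per the submitters' processing notes, without roles. The sources used here do not say whether counting used strand. Columns were matched to samples by name. The 12234 of 18257 genes that reached 1 CPM in 2 or more libraries were fitted in edgeR 4.0.16 (R 4.3.3) with TMM factors, in 1 model of all 5 libraries whose single term was the group. Contrasts used the quasi-likelihood F test with Benjamini-Hochberg adjustment over all genes, called at 0.05. The mock is a single library and is assumed to vary like the siRNA pairs. SE is the log2 fold change over the square root of F; intervals use the t distribution. Levels are CPM by library total. Exon lengths and shared bases came from GENCODE 29 (GRCh38), matched for 17435 genes, promoters from RefSeq. Counts differed more than sampling noise within each pair (chi-square per degree of freedom 2.62 for DICER1, 7.58 for DROSHA). DESeq2 1.42.0 was an alternative. The steps were tested on simulated data. The members, lists and tests were chosen with earlier results of these data known. All 39 members are named; fold changes are given for the 5 with the smallest p per contrast, and at most 3 genes per pathway list by p, others being said to be chosen after their values were seen (PARP9 in DICER1 against mock also).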

Additional observations from a re-analysis of the deposited data

How the results depend on the processing

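None of the 39 listed genes was called in any comparison under any of the 12 alternatives run (2 of them for DICER1 against DROSHA only). Of these 39, 24 were expressed under every choice of library, 27 at a limit of 0.5 CPM and 20 at 5 CPM. Counts of all genes called moved. In DICER1 against mock 1 became 3 with no filter, 5 with DESeq2, 29 with the likelihood ratio test and 0 to 5 with a library left out. In DROSHA against mock 1 became 3 with the likelihood ratio test and 1 to 225 with a library left out. In DICER1 against DROSHA 2 became 12 with no filter, 24 with DESeq2, 130 with the likelihood ratio test, 4 with siRNA number as a replicate block, and 1 to 427 with a library left out. For all siRNA against mock 1 became 2 with DESeq2, 7 with the likelihood ratio test and 0 to 46 with a library left out. The labels do not say whether same-numbered DICER1 and DROSHA siRNA libraries belong together. Same-numbered deviations correlated at 0.0243 over genes, and the block called 0 members. Whether same-numbered libraries share a batch was not tested. The median log2 fold change of the members moved by more than the spread between libraries to -0.0636, -0.0674 and -0.0815 at 5 CPM (DICER1, DROSHA and all siRNA against mock), to -0.021 in DROSHA against mock with library totals alone, and to 0.0675 for all siRNA against mock with no filter. With a library left out it ran from -0.00742 to 0.0554, -0.0515 to -0.0304, -0.0542 to 0.0756 (DICER1 against DROSHA) and -0.0584 to 0.0205. Its sign thus changed with the library left out in every comparison but DROSHA against mock, where it was negative under each alternative run. ADAR in DROSHA against mock stood at -0.733 when DROSHA siRNA 1 was left out and reversed to 0.0247 when DROSHA siRNA 2 was. Of these shifts the cause was not tested. With 7620206 to 8736455 counts a library, genes at or under 3 reads allow no fold change.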
